A study of Caenorhabditis elegans with 8 samples.

Results

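The mitochondrial unfolded protein response is represented here by 9 genes, chosen by name as its known regulators, chaperones and proteases: atfs-1, dve-1, ubl-5, hsp-6, hsp-60, haf-1, clpp-1, lonp-1 and spg-7. All 9 were found among the 46928 gene rows of the deposited counts, and all 9 passed the filter on low counts. The libraries came from dissociated and sorted cells of Caenorhabditis elegans at the L4 stage, 4 from skn-1gf(lax188) animals and 4 from wild-type (N2) animals. Both genotypes carried daf-7p::gfp, in which the promoter of daf-7, a TGF-beta gene of the ASI sensory neurons, drives green fluorescent protein, and both were raised on OP50 bacteria. The labels speak both of sorting cells and of homogenising animals for RNA, so the step between them is described in part. The allele lax188 is a gain-of-function allele of skn-1, which encodes a transcription factor that activates detoxification genes. No mitochondrial stressor is named in the labels, so the comparison asks whether the steady levels of these 9 RNAs differed between the genotypes.

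In this response, damage to mitochondria or a failure of protein import is answered by transcription in the nucleus. ATFS-1, a bZIP factor that healthy mitochondria import and degrade, then enters the nucleus and turns on chaperone and protease genes. The GFP reporters of hsp-6 and hsp-60 are the standard readouts of the response in worms, and neurons are known to relay it to other tissues such as the intestine.

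No difference between the genotypes was detected in any of the 9 genes. The main chaperone gene, hsp-6, showed a log2 fold change (skn-1gf minus wild type) of 0.03, and the median over the 9 genes was 0.03 against 0.04 over all 12734 genes tested. The edgeR quasi-likelihood test called 0 of the 9 genes at a threshold of 0.05 on the adjusted p, where 0.0% of all genes tested were called, and the adjusted p was 0.999989 for each. Before adjustment also 0 of the 9 reached p under 0.05, against 4.07% of all genes (1.44% higher and 2.62% lower). In 0 of the 9 genes did the 4 libraries of a genotype lie apart from all 4 of the other, against 2.17% of all genes (1.01% above and 1.15% below). DESeq2 and limma-voom, run as alternatives, likewise called 0 of the 9. Of the log2 fold changes, 6 were positive and 3 negative, and 46.3% of all genes tested had a negative one.

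Total gene counts per library were 2976889 to 9680840 in skn-1gf and 5475892 to 10740970 in wild type, and reads of the 9 genes made up 0.084 to 0.160% of them. The level of skn-1 itself, 307 ± 68.6 CPM in skn-1gf and 295 ± 108 CPM in wild type (SD, n = 4 each), did not differ beyond its spread and gives no check of a gain-of-function allele. Its known target gst-4, a glutathione transferase gene, was at 76.9 ± 52.5 CPM in skn-1gf and 10.5 ± 2.96 CPM in wild type, with all skn-1gf libraries above all wild-type ones. Even so, edgeR did not call gst-4 (unadjusted p = 8.29e-05, adjusted p = 0.999989), while DESeq2 did (adjusted p = 0.00046). CPM, the usual read-count unit normalised to library size, is given after TMM scaling. Wild-type replicate 2 stood apart from the other libraries. It had the lowest TMM factor (0.658), the highest share of ribosomal RNA (32.8% of gene counts) and the fewest genes detected (11909), so the results it moves most are also given without it. Markers of the sorted neurons were low. The 8 ASI markers summed to 11.1 to 174 CPM in skn-1gf and 10.3 to 29.0 CPM in wild type, with 6 of them at 0 in at least 1 library. The 11 body wall muscle markers summed to 7635 to 32376 CPM in skn-1gf and 12091 to 25854 CPM in wild type. The libraries thus held transcripts of several tissues, and in such bulk samples fewer cells of a type cannot be told apart from less RNA per cell.

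**Figure D1:**
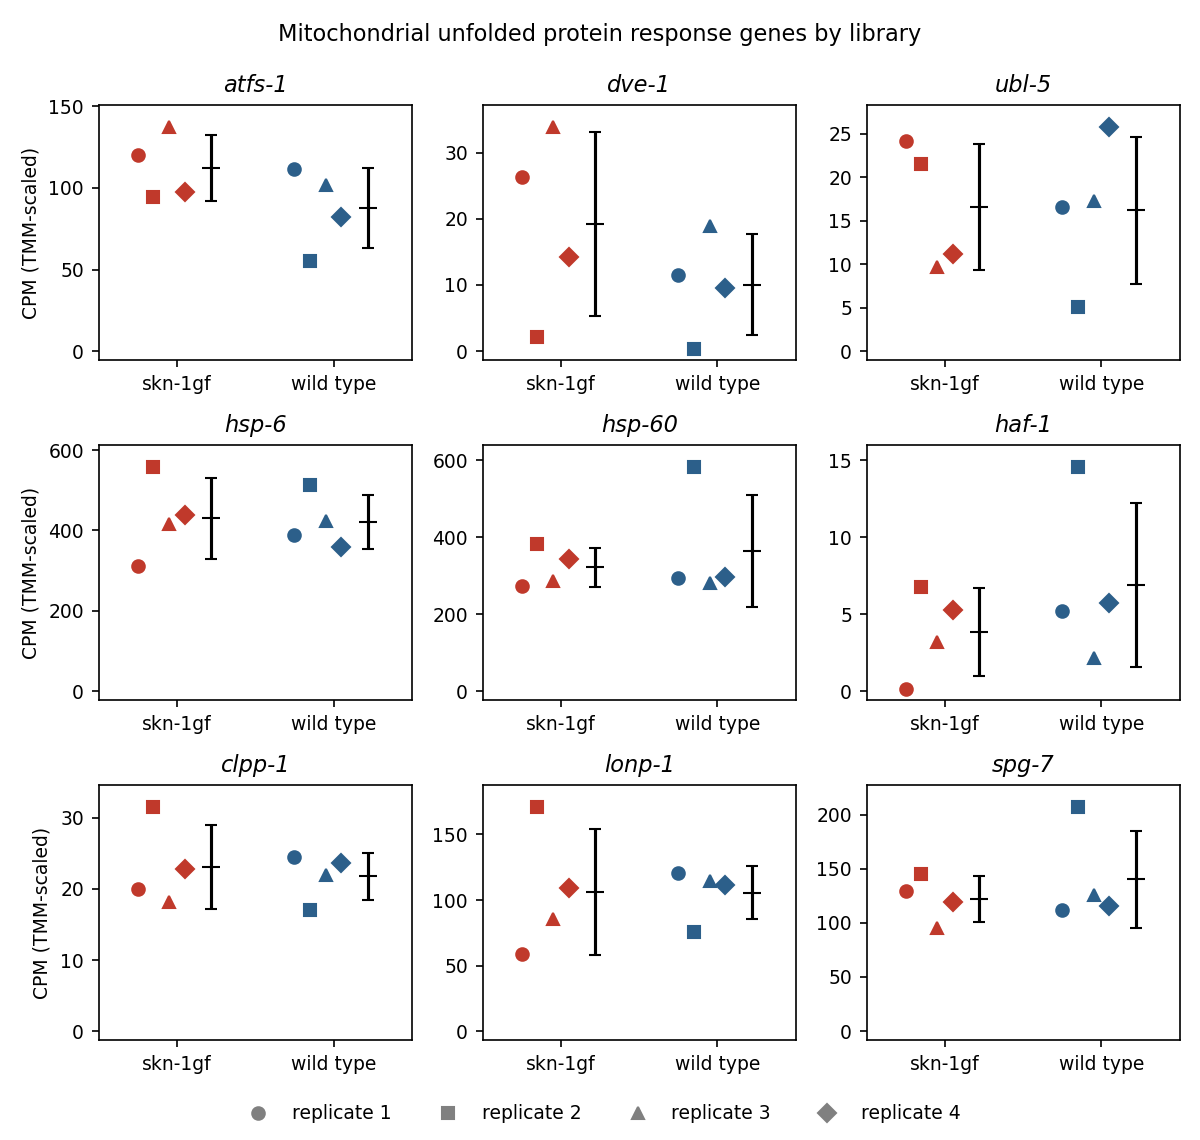
Level of each of the 9 genes in every library, in TMM-scaled CPM on a linear axis, with skn-1gf at left and wild type at right. Symbols mark replicates 1 to 4 and black bars the mean ± SD (n = 4 each); the ranges of the genotypes overlap in all 9 panels, and wild-type replicate 2 is the highest point for hsp-60 (582 CPM) and spg-7 (207 CPM).

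Among the regulators, atfs-1 (CELE_ZC376.7, chromosome V) encodes the transcription factor of the response itself. Its levels were 119.9, 94.3, 137 and 97.7 CPM in skn-1gf replicates 1 to 4, against 111.5, 55.5, 101.5 and 82.2 CPM in wild-type replicates 1 to 4. The highest skn-1gf libraries exceeded all wild-type libraries, but the lowest skn-1gf value lay inside the wild-type range. The log2 fold change was 0.36 ± 0.29 SE, and its 95% confidence interval of −0.27 to 0.98 spans 0.83-fold to 1.97-fold. Of the 9 genes, atfs-1 had the smallest unadjusted p in edgeR, at 0.239. The difference was 0.17 without wild-type replicate 2, the lowest library, and 0.02 in limma-voom with sample quality weights.

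The homeodomain gene dve-1 (CELE_ZK1193.5, chromosome X) encodes a chromatin-associated factor that works with ATFS-1 at chaperone genes. It was at 26.4, 2.16, 33.8 and 14.2 CPM in skn-1gf replicates 1 to 4, against 11.5, 0.316, 18.9 and 9.56 CPM in wild-type replicates 1 to 4. Both libraries numbered 2 were far below the rest, that of wild type with 2 counts and that of skn-1gf with 16 counts. The spread within a genotype was thus wider than the difference between them, and the log2 fold change was 0.92 ± 0.96 SE (95% interval −1.17 to 3.02). Omitting wild-type replicate 2 gave 0.47, omitting skn-1gf replicate 3 gave 0.44, and the value was 1.41 without wild-type replicate 3.

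Levels of dve-1 moved with those of ciliated neuron markers across libraries of both genotypes, though not with these alone. Ordered by dve-1, the 8 libraries ran in nearly the same order as by the summed CPM of 15 markers of ciliated sensory neurons. Skn-1gf replicates 1 and 3, which traded the top ranks, were the sole exception. The marker sums were 125.5, 33.5, 117 and 61.0 CPM in skn-1gf replicates 1 to 4, against 51.3, 10.1, 102 and 39.6 CPM in wild-type replicates 1 to 4. Of the 15 markers 12 were tested, 11 of them with a positive log2 fold change, 10 were at 0 in at least 1 library and 0 were at 0 in all. The 12 pan-neuronal markers summed to 219 to 1565 CPM in skn-1gf and 329.7 to 1515 CPM in wild type. By that sum wild-type replicate 2 ranked 6, while by dve-1 it ranked 8. The order was not particular to neurons. Glia markers summed to 264, 79.4, 640 and 124 CPM in skn-1gf replicates 1 to 4, also close to the order by dve-1. In wild-type replicates 1 to 4 the glia sums were 91.7, 79.8, 103 and 83.2 CPM. The link of dve-1 with these markers was noticed after the values were seen, and all points share their library's scaling. The part of neuronal or glial content in the dve-1 values was not tested.

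**Figure D2:**
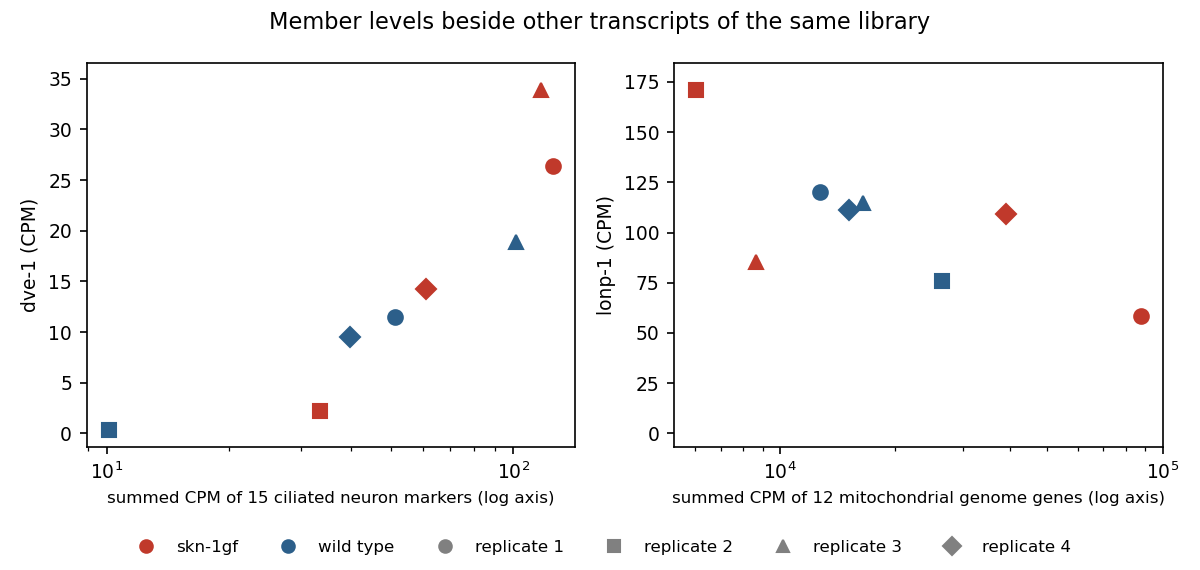
Left, dve-1 (CPM, linear axis) against the summed CPM of 15 ciliated neuron markers (log axis), and right, lonp-1 (CPM) against the summed CPM of 12 genes of the mitochondrial genome (log axis), 1 point per library. Red points are skn-1gf and blue points wild type, and symbols mark the replicate. The dve-1 level is lowest where the marker sum is lowest (wild-type replicate 2, 10.1 CPM). In TMM-scaled CPM lonp-1 is lowest (58.6 CPM) where mitochondrial genome transcripts are highest (skn-1gf replicate 1), but skn-1gf replicate 3 ranks 7 by those transcripts and 6 by lonp-1.

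The third regulator, ubl-5 (CELE_F46F11.4, chromosome I), encodes a small ubiquitin-like protein that binds DVE-1. It had 24.1, 21.5, 9.63 and 11.2 CPM in skn-1gf replicates 1 to 4, against 16.6, 5.06, 17.3 and 25.8 CPM in wild-type replicates 1 to 4. Each genotype covered nearly the whole range of the other. The log2 fold change of 0.04 ± 0.60 SE (95% interval −1.26 to 1.35) changed sign in several settings and leaves room for a difference of more than 2.5-fold (upper limit 2.54-fold). Its merged exons span only 0.327 kb, the shortest of the 9, and it had 30 to 204 counts per library in skn-1gf and 32 to 318 in wild type.

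The chaperone hsp-6 (CELE_C37H5.8, chromosome V) is the mitochondrial HSP70, which draws proteins into the matrix and folds them. It was at 311, 557, 417 and 438 CPM in skn-1gf replicates 1 to 4, against 389.7, 513, 423 and 358 CPM in wild-type replicates 1 to 4. Skn-1gf held both the highest and the lowest library. The means were 431 ± 101 CPM in skn-1gf and 421 ± 66.8 CPM in wild type (SD, n = 4 each), and the log2 fold change was 0.03 ± 0.28 SE. The 95% confidence interval, −0.57 to 0.63, covers changes of 0.676-fold to 1.55-fold and was the narrowest of the 9.

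The chaperonin hsp-60 (CELE_Y22D7AL.5, chromosome III) forms the folding chamber of the matrix. Its levels were 273, 383, 287 and 343 CPM in skn-1gf replicates 1 to 4, against 294, 582, 281 and 297 CPM in wild-type replicates 1 to 4. Apart from replicate 2, the wild-type libraries agreed within 281 to 297 CPM, and the skn-1gf values lay around them. The log2 fold change was −0.18 ± 0.31 SE (95% interval −0.84 to 0.49), and it was 0.14 without wild-type replicate 2. That gap depended on the scaling. By total gene counts alone hsp-60 was at 381 CPM there, against 342 to 362 CPM in the other wild-type libraries, and 238 to 435 CPM in skn-1gf.

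**Figure D3:**
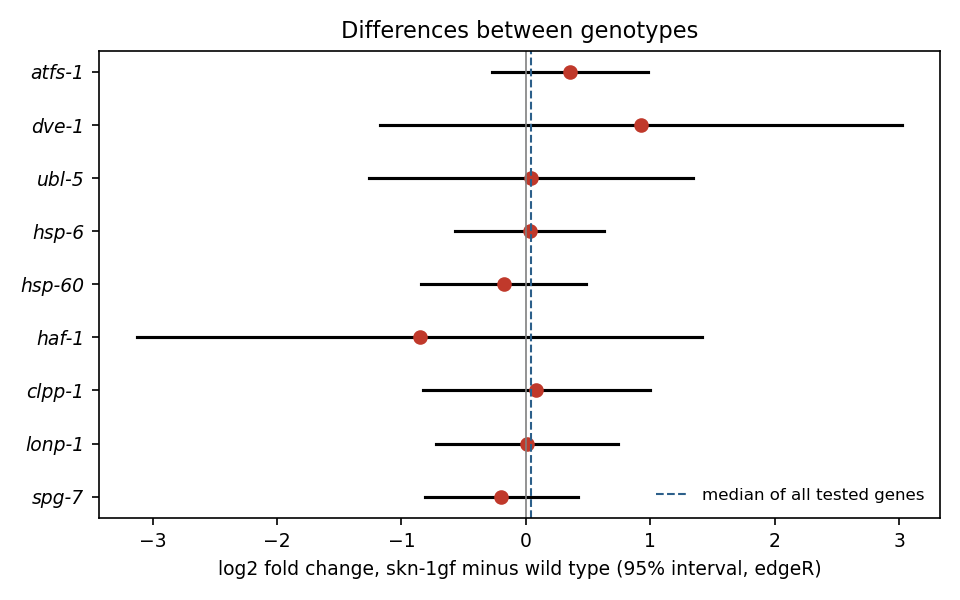
Log2 fold change (skn-1gf minus wild type) of each gene from edgeR, with its 95% confidence interval as a black line; the dashed line is the median of all 12734 genes tested (0.04). All 9 intervals include 0, and those of dve-1, haf-1 and ubl-5 are the widest.

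The remaining genes act in peptide export and proteolysis. HAF-1, an ABC transporter of the inner membrane, exports peptides from the matrix. Its gene haf-1 (CELE_C30H6.6, chromosome IV) had the fewest counts of the 9 in total, with 1, 50, 11 and 14 counts in skn-1gf replicates 1 to 4 and 49, 92, 15 and 71 counts in wild-type replicates 1 to 4. In CPM these were 0.118, 6.75, 3.21 and 5.24 in skn-1gf, against 5.21, 14.5, 2.13 and 5.75 in wild type. The ranges overlap, and the log2 fold change of −0.85 ± 1.04 SE (95% interval −3.12 to 1.42) became −0.17 when wild-type replicate 2 was omitted and −0.36 when skn-1gf replicate 1 was. Its exons overlap those of C30H6.9, on the opposite strand, by 64 bases (3.04% of its exon length), and reads there cannot be told apart because the strand setting of the counting is not given in the sources used here.

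Matrix peptides are produced by ClpP, the protease encoded by clpp-1 (CELE_ZK970.2, chromosome II). It was at 19.995, 31.5, 18.1 and 22.8 CPM in skn-1gf replicates 1 to 4, against 24.5, 17.1, 22.004 and 23.6 CPM in wild-type replicates 1 to 4. The highest value was in skn-1gf and the lowest in wild type, with the rest interleaved. The log2 fold change was 0.08 ± 0.42 SE (95% interval −0.83 to 1.00).

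LONP-1, the Lon protease that degrades ATFS-1 in healthy mitochondria, had a coefficient of variation of 45.1% in skn-1gf and 19.2% in wild type. Levels of lonp-1 (CELE_C34B2.6, chromosome I) were 58.6, 170.7, 85.5 and 109 CPM in skn-1gf replicates 1 to 4, against 120.3, 75.7, 114.7 and 111.2 CPM in wild-type replicates 1 to 4. The means were close, at 106 ± 47.9 CPM in skn-1gf and 105 ± 20.2 CPM in wild type, while the skn-1gf libraries ranged on both sides of all wild-type ones. The log2 fold change was 0.01 ± 0.34 SE (95% interval −0.72 to 0.74). It was 0.24 when skn-1gf replicate 1 was omitted, −0.33 when skn-1gf replicate 2 was, and −0.46 in the absence of both libraries numbered 2.

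The gene spg-7 (CELE_Y47G6A.10, chromosome I) encodes an AAA protease of the inner membrane. It had 129.6, 145, 95.1 and 119 CPM in skn-1gf replicates 1 to 4, against 112, 207, 126 and 116 CPM in wild-type replicates 1 to 4. With TMM scaling wild-type replicate 2 was the high library and the others interleaved with skn-1gf. By total gene counts alone it was at 135.5 CPM, inside the 133 to 162 CPM of the other wild-type libraries. The log2 fold change was −0.20 ± 0.28 SE (95% interval −0.81 to 0.42), and 0.04 without that library.

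Per kilobase of merged exons, the chaperones led in every library. In skn-1gf the order of mean levels, in CPM per kb, was hsp-6 (175 ± 41.1), hsp-60 (152 ± 24.1), atfs-1 (58.3 ± 10.4), ubl-5 (50.8 ± 22.2), spg-7 (41.9 ± 7.17), lonp-1 (34.7 ± 15.6), clpp-1 (29.2 ± 7.48), dve-1 (5.77 ± 4.19) and haf-1 (1.82 ± 1.36). In wild type hsp-60 (171 ± 68.7) and hsp-6 (171 ± 27.2) stood level, followed by ubl-5 (49.5 ± 25.99), spg-7 (48.0 ± 15.4), atfs-1 (45.5 ± 12.81), lonp-1 (34.5 ± 6.60), clpp-1 (27.6 ± 4.19), haf-1 (3.28 ± 2.53) and dve-1 (3.03 ± 2.30). Libraries of neighbouring genes in these orders overlapped, with a pair of gaps in each genotype. Both chaperones lay above every library of the next gene, 2.60-fold by the means in skn-1gf (hsp-60 over atfs-1) and 3.46-fold in wild type (hsp-6 over ubl-5). The clpp-1 level lay above every library of the gene after it, 5.06-fold in skn-1gf (over dve-1) and 8.41-fold in wild type (over haf-1).

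Of the 9 genes, 6 varied less across the libraries of both genotypes than the median gene, although genes of like abundance were not compared. The coefficient of variation of the chaperones, atfs-1, clpp-1, lonp-1 and spg-7 was 15.9 to 45.1% in skn-1gf and 15.2 to 40.1% in wild type, against medians of 52.1% in skn-1gf and 51.0% in wild type over all genes tested. Without wild-type replicate 2 the wild-type values of these 6 genes were 2.91 to 15.1%, against a median of 26.7%. The half-width of the 95% interval of the log2 fold change ran from 0.60 (hsp-6) to 2.27 (haf-1), against a median of 1.44 over all genes. For 6 of the 9 genes the interval of the main fit excluded a 2-fold difference in either direction. It did so only narrowly for clpp-1 (upper limit 1.99-fold) and atfs-1 (upper limit 1.97-fold). Intervals under the other settings were not examined. For ubl-5, dve-1 and haf-1 the interval included a 2-fold difference in both directions, so these data do not settle whether there was a difference of that size.

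Ratios within a library hardly depend on how libraries are scaled, so the chaperones were also set against their cytosolic counterparts. The log2 ratio of hsp-6 to hsp-1, the constitutive cytosolic HSP70, was −2.82, −2.45, −2.58 and −2.60 in skn-1gf replicates 1 to 4, against −2.26, −2.68, −2.23 and −2.70 in wild-type replicates 1 to 4. These ratios are of CPM uncorrected for length and serve to compare libraries. Their means differed by −0.14 (skn-1gf minus wild type, two-sided exact permutation p = 0.343, 0.543 after adjustment over the 3 ratios). The ratio of hsp-60 to the mean of cct-1 to cct-8, subunits of the cytosolic chaperonin, was 0.36 ± 0.21 in skn-1gf and 0.47 ± 0.27 in wild type (exact permutation p = 0.543, adjusted p = 0.543). That of hsp-6 to hsp-60 was 0.41 ± 0.17 in skn-1gf and 0.27 ± 0.33 in wild type (exact permutation p = 0.543, adjusted p = 0.543). The smallest p that the 70 assignments allow is 0.0286. Both ratios with hsp-60 changed sign without wild-type replicate 2 (0.02 for hsp-60 to CCT and −0.02 for hsp-6 to hsp-60), while hsp-6 to hsp-1 kept its sign in all 12 alternatives.

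**Figure D4:**
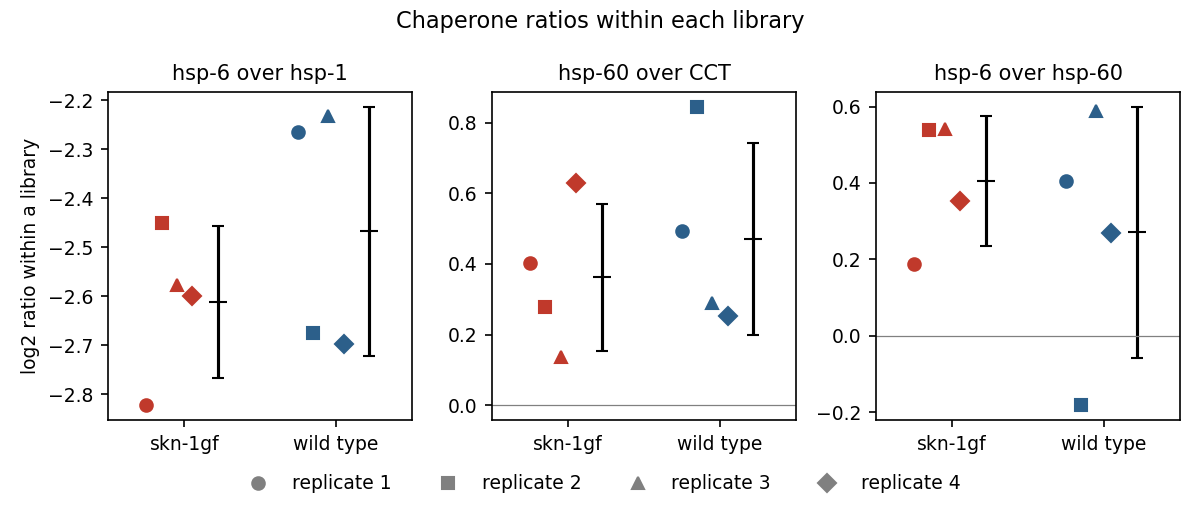
Log2 ratios of chaperone levels within each library, with skn-1gf at left and wild type at right; symbols mark replicates 1 to 4 and black bars the mean ± SD (n = 4 each). The genotypes overlap in all 3 panels, and wild-type replicate 2 is the extreme wild-type point for hsp-60 over CCT (0.85) and hsp-6 over hsp-60 (−0.18).

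Further genes of the response were also without a call. Of 11 other regulators tested, 6 lay above 0 and 5 below it on the log2 scale, with a median of 0.05. They include zip-3, a bZIP repressor of ATFS-1, at 16.2 ± 10.4 CPM in skn-1gf and 7.96 ± 2.30 CPM in wild type (log2 fold change 1.02, SE 0.69). The histone demethylase gene jmjd-1.2 was at 113 ± 22.5 CPM in skn-1gf and 149 ± 9.13 CPM in wild type, and the deacetylase gene hda-1 at 177 ± 31.5 CPM in skn-1gf and 137 ± 17.6 CPM in wild type. The sphingosine kinase gene sphk-1 stood at −0.59 (SE 0.49). Over the 19 alternatives the median ran from −0.14 (without both libraries numbered 2, 3 of 11 positive) to 0.22 (without skn-1gf replicate 1, 7 of 11 positive).

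Genes reported as ATFS-1 targets gave a median log2 fold change of 0.05 over the 9 of 13 that passed the filter, hsp-6 and hsp-60 included. Of these 6 were positive and 3 negative. The glycolytic gene gpd-2 was at 187 ± 91.3 CPM in skn-1gf and 128 ± 33.5 CPM in wild type. The lysozyme gene lys-2 was low, at 9.84 ± 7.94 CPM in skn-1gf and 6.58 ± 4.68 CPM in wild type, and the import channel gene timm-23 was at 56.5 ± 14.1 CPM in skn-1gf and 69.3 ± 31.4 CPM in wild type. For K09E9.1 the log2 fold change was 0.79 (SE 1.05). The median of this list ran from −0.02 with total-count scaling (4 of 9 positive) to 0.44 in DESeq2, which kept all 13 genes (10 of 13 positive).

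Import and folding factors of mitochondria had 6 of 18 tested members positive and 12 negative, with a median of −0.08. The small TIM chaperone genes tin-13, tin-10 and tin-9.1 were among those with the smallest p, with log2 fold changes of −0.81 (SE 0.50), −0.48 (SE 0.46) and −0.38 (SE 0.41). Y22D7AL.10, the gene next to hsp-60 on chromosome III, was at 90.4 ± 28.1 CPM in skn-1gf and 68.6 ± 15.3 CPM in wild type (log2 fold change 0.40, SE 0.30). The median of the list ran from −0.35 without skn-1gf replicate 2 (1 of 18 positive) to 0.04 without skn-1gf replicate 3 (12 of 18 positive).

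Among 11 genes of mitochondrial quality control, mainly of the inner membrane, 5 were positive and 6 negative. Their median of −0.08 ran from −0.21 (without wild-type replicate 3) to 0.02 (limma-voom). The prohibitin gene phb-2 was at 168 ± 53.5 CPM in skn-1gf and 131 ± 23.4 CPM in wild type, and the cristae organiser genes immt-1 and immt-2 stood at 0.43 (SE 0.34) and −0.27 (SE 0.34) as log2 fold changes. K07A3.3 had the 1 unadjusted p under 0.05 among the 11 (0.033 in edgeR), against 4.07% of all genes tested. It was at 2.66 ± 2.79 CPM in skn-1gf and 20.3 ± 21.9 CPM in wild type. Its highest library was wild-type replicate 2, at 51.8 CPM. For mitochondrial dynamics and mitophagy, 8 of 11 genes were positive, with a median of 0.17. The mitophagy kinase gene pink-1 was at 57.3 ± 11.6 CPM in skn-1gf and 39.8 ± 23.1 CPM in wild type, and the fusion gene eat-3 at 146 ± 26.1 CPM in skn-1gf and 125 ± 42.0 CPM in wild type. The mitophagy receptor gene fndc-1 and the fission factor gene mff-1 stood at 0.63 (SE 0.83) and 0.52 (SE 0.70) as log2 fold changes. The median of this list ran from −0.06 with quality weights (4 of 11 positive) to 0.37 without wild-type replicate 4 (9 of 11 positive).

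Genes that carry the response between tissues were positive in 7 of 7, with a median of 0.77. The neuropeptide gene flp-2 was at 23.04 ± 15.9 CPM in skn-1gf and 6.94 ± 7.05 CPM in wild type (log2 fold change 1.73). The receptor genes fshr-1 and ser-1 were at log2 fold changes of 0.77 (SE 0.83) and 0.82 (SE 1.06), and tph-1, needed for serotonin synthesis, was at 1.05 (SE 1.53). The median of the list ran from 0.24 without skn-1gf replicate 3 (5 of 7 positive) to 1.62 without wild-type replicate 3 (7 of 7 positive). The neuronal marker sums given above were also highest in skn-1gf replicates 1 and 3, as flp-2 was, at 33.1 and 37.6 CPM. Their part in these values was not tested.

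Relatives of the chaperones in other compartments had no call either. Among HSP70 and HSP110 genes, 4 of 5 were positive with a median of 0.13, which was 0.32 without wild-type replicate 2. They include hsp-1 at 2599 ± 354 CPM in skn-1gf and 2367 ± 639 CPM in wild type, the endoplasmic reticulum genes hsp-3 (log2 fold change 0.26, SE 0.33) and hsp-4 (0.14, SE 0.30), and hsp-110 (0.02, SE 0.26). Of the 8 CCT genes 3 were positive and 5 negative, within −0.13 to 0.10, with 0 of 8 positive under total-count scaling and without skn-1gf replicate 2, and 7 of 8 without wild-type replicate 2. Of 6 tested ABC transporter genes of the HAF family besides haf-1, 4 were positive, with 2 of 6 positive without wild-type replicate 3 and 6 of 6 without wild-type replicate 2. The smallest p in edgeR was that of haf-7 (unadjusted p = 0.0459), at 38.4 ± 26.6 CPM in skn-1gf and 18.0 ± 2.02 CPM in wild type, with 77.0 CPM in skn-1gf replicate 3. The others included haf-2 (log2 fold change 0.23, SE 0.26), haf-9 (−0.66, SE 0.78) and haf-4 (−0.20, SE 0.90).

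Transcript levels of the mitochondrial genome were set beside the 9 genes. The 12 protein-coding genes of the mitochondrial genome summed to 87628, 6032, 8656 and 38893 CPM in skn-1gf replicates 1 to 4, against 12669, 26433, 16482 and 15140 CPM in wild-type replicates 1 to 4. Skn-1gf thus held the highest and the lowest libraries. All 12 had a positive log2 fold change, with a median of 1.02, and 6 of 12 were positive with a median of −0.04 without skn-1gf replicate 1. Summed levels of the 9 response genes varied far less, from 963 to 1413 CPM in skn-1gf and from 1029 to 1470 CPM in wild type. The ratio of the mitochondrial genome sum to the sum over the 9 genes was 4.27 to 91.0 in skn-1gf and 11.7 to 18.0 in wild type. With TMM scaling, both hsp-6 and lonp-1 were lowest of all 8 libraries in skn-1gf replicate 1, where the mitochondrial genome sum was highest, and highest in skn-1gf replicate 2, where it was lowest. Not all libraries between these extremes followed such an order. Skn-1gf replicate 4 and wild-type replicate 2 ranked 2 and 3 from the top by that sum, but 3 and 2 by hsp-6. Skn-1gf replicate 3 ranked 7 by that sum, but 6 by lonp-1. A relation between these levels was not tested. By total gene counts alone lonp-1 was lowest in wild-type replicate 2 (49.6 CPM, against 51.1 CPM in skn-1gf replicate 1), and hsp-6 in wild-type replicate 2 moved from the second highest to the second lowest level.

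Nuclear genes of electron transport and ATP synthase were positive in 28 of 31, with a median of 0.21, and in 3 of them all skn-1gf libraries lay above all wild-type libraries, against 1.01% of all genes. These were cox-6C (242 ± 74.3 CPM in skn-1gf and 121 ± 25.5 CPM in wild type), sdhd-1 and cox-7C, and none passed the test over all genes. The median of the list ran from 0.14 without wild-type replicate 3 (20 of 31 positive) to 0.63 without both libraries numbered 2 (29 of 31 positive), and was 0.54 without wild-type replicate 2 (31 of 31 positive). Body wall muscle markers were positive in 9 of 11 (median 0.33) and intestine markers in 13 of 14 (median 0.75), and their part in these values was not tested.

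For hsp-6 and hsp-60, the genes with the most similar profile over the 8 libraries were sought by Pearson's r of log2 CPM across all genes tested. These coefficients are the highest of all genes tested and describe the libraries only. The closest to hsp-6 were dhhc-8 (r = 0.99, Spearman's rho = 1.0), bltp-2 (r = 0.97), fzr-1 (r = 0.96), smg-2 (r = 0.96) and Y48G1C.8 (r = 0.95). For hsp-60 they were gpcp-2, lnkn-1, emc-1, Y53F4B.9 and mboa-6 (r = 0.98 for each, rho 0.69 to 0.93). Between the chaperones themselves r was 0.72 (rho = 0.74). Against hsp-60, atfs-1 and dve-1 ran the other way in TMM-scaled values, with r of −0.85 (rho = −0.81) and −0.94 (rho = −0.86). Wild-type replicate 2 weighs on both, being highest for hsp-60 (582 CPM) and lowest for atfs-1 (55.5 CPM) and dve-1 (0.316 CPM). By total gene counts alone hsp-60 was instead highest in skn-1gf replicate 2 (435 CPM, against 381 CPM in wild-type replicate 2). The coefficients were not computed with that scaling or without wild-type replicate 2.

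**Figure D5:**
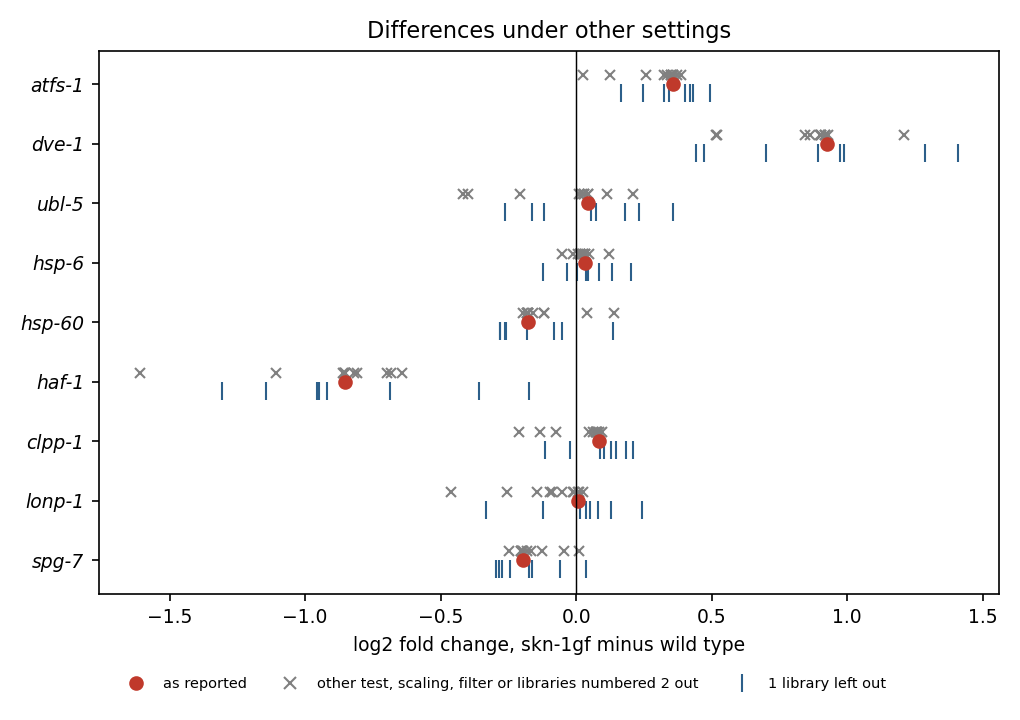
Log2 fold change (skn-1gf minus wild type) of each gene as reported (red), with another test, scaling or filter or with both libraries numbered 2 left out (grey crosses), and with 1 library left out (blue bars). Values of atfs-1 and dve-1 stay above 0 and those of haf-1 below 0 in all 19 alternatives, while the other 6 genes fall on both sides.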

How the data were processed

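Whole-number read counts per gene, deposited by the authors as 1 file per library, entered the analysis unchanged. As upstream steps, the submitters' processing notes name the build ce10 and, as tools, R 3.5.2, DESeq2, HTSeq 2.0.2 and STAR 2.7.6a. For strand setting, annotation release and duplicate handling, nothing is stated ("not given in the sources used here"). The 5 summary lines of each file were left out (reads with no feature 2.76 to 14.4% and ambiguous reads 1.48 to 2.62% of uniquely aligned reads). Names, for 46919 of 46928 rows, came from a RefSeq table of WBcel235, and exon lengths and overlaps from Ensembl release 115 of WBcel235. Coordinates served only for these lengths and overlaps and for the neighbours of a gene, and none are printed, because that build is not the submitters'.

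Genotypes were compared with edgeR 4.0.16 in R 4.3.3 (quasi-likelihood test, TMM scaling, filterByExpr with minimum count 10 and minimum total 15), with Benjamini-Hochberg adjustment over 12734 genes and a threshold of 0.05. The procedure was tested on simulated data. SEs were derived from each gene's log2 fold change and F statistic in the same fit, and the intervals from these SEs and the t distribution. They are thus approximate. The log2 CPM used a prior count of 2, and the test of the ratios was an exact permutation test (two-sided). The libraries are labelled as biological replicates with no more of their origin, so p-values set the difference between genotypes against the spread between these samples. Alternatives were DESeq2 1.42.0, limma-voom 3.58.1, other scalings and filters, protein-coding genes only, the replicate number as a block, and libraries left out. The 9 genes and the lists were chosen with earlier results of these data known, from general knowledge. Named beside them are up to 4 genes of each list with the smallest p, reference chaperones, skn-1, and the 5 closest profiles of hsp-6 and of hsp-60.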

Additional observations from a re-analysis of the deposited data

Results flagged for a closer look

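In a group of 4 libraries, a value was picked out when its gap to the nearest other exceeded Dixon's 95% critical share of the group's range, which chance does in about 1 group in 20. Of the 126 groups examined, 9 were picked out, and 8 of these fell in wild-type replicate 2. There hsp-60 was at 582 CPM (others 281 to 297) and spg-7 at 207 CPM (others 112 to 126). These values are TMM-scaled, with a factor of 0.658 in that library. By total gene counts alone hsp-60 was at 381 CPM there (others 342 to 362) and spg-7 at 135.5 CPM, inside the range of the others (133 to 162). In the same library cct-1 was at 490.5 CPM (others 228 to 263), cct-5 at 561 CPM (others 308 to 346), cct-7 at 355 CPM (others 166 to 197), cct-8 at 367 CPM (others 206 to 231), hsp-3 at 760.3 CPM (others 400.2 to 428) and pink-1 at 5.53 CPM (others 48.4 to 56.0). The other was mev-1, a complex II gene, in skn-1gf replicate 2, at 94.0 CPM (others 123 to 125).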

How the results depend on the processing

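No alternative called any of the 9 genes (smallest adjusted p 0.444, dve-1), and the median over the 9 stayed within −0.14 and 0.18. Over all genes, where edgeR called 0 (518 at an unadjusted p under 0.05), edgeR without a low-count filter called 159, limma-voom with quality weights 6 and DESeq2 4 (gst-4, far-1, C23G10.11 and mpst-4), and edgeR called 0 when any single library was left out. The direction of atfs-1, dve-1 and haf-1 held throughout. Total-count scaling put the median of all genes at −0.12, against 0.04, and turned ubl-5 to −0.21, hsp-6 to −0.054, clpp-1 to −0.076 and lonp-1 to −0.14. Quality weights turned ubl-5 to −0.42, hsp-60 to 0.14, clpp-1 to −0.13, lonp-1 to −0.26 and spg-7 to 0.011. For lonp-1 the value was −0.010 with RLE, −0.051 with upper-quartile scaling, −0.0091 with DESeq2 and −0.10 with limma-voom. Without both libraries numbered 2 the values were ubl-5 −0.40, hsp-6 −0.013, hsp-60 0.041, clpp-1 −0.21 and lonp-1 −0.46, the hsp-60 to CCT ratio 0.045 and the hsp-6 to hsp-60 ratio −0.061. With single libraries left out, ranges were −0.26 to 0.36 for ubl-5, −0.12 to 0.20 for hsp-6, −0.28 to 0.14 for hsp-60, −0.11 to 0.21 for clpp-1, −0.33 to 0.24 for lonp-1, −0.30 to 0.037 for spg-7, −0.20 to 0.017 for the hsp-60 to CCT ratio and −0.016 to 0.24 for the hsp-6 to hsp-60 ratio. The cause of these sign changes was not tested. Replicate numbers are shared by the genotypes, and same-numbered libraries deviated together in 1 of 4 pairs (r = −0.01, 0.06, 0.51 and 0.06 for numbers 1 to 4). The value for number 3 was the highest of all pairings of a skn-1gf with a wild-type library. Whether same-numbered libraries share more than a number was not tested. With the replicate block edgeR called 0 genes (679 at an unadjusted p under 0.05) and 0 of the 9, and lonp-1 was at −0.088. Few counts limit haf-1 (1 in skn-1gf replicate 1, of 9680840 gene counts) and dve-1 (2 in wild-type replicate 2, of 9652874).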
